A study of Homo sapiens with 2 samples.

Results

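Mitosis and spindle genes encode the proteins that carry a cell from G2 through chromosome segregation to cytokinesis. A set of 45 such genes was taken by symbol from a table of 58735 genes, and all 45 were found once. They were compared between 1 library of NCI-H460 cells transfected with an siRNA against CYP4F11 (siCYP4F11) and 1 library of the same line labelled siControl. NCI-H460 is a human large cell lung carcinoma line, and the labels give pleural effusion as its source. RNA was collected 24 h after transfection with a lipid reagent. The label of the control says only that it was transfected without that siRNA, and its genotype label is WT, while that of the siCYP4F11 library is CYP4F11 knockdown. Both libraries carry the same batch label. The design text spells the line NCI-H469. With 1 library per group no difference has a replicate check, and no test across genes was possible. All intervals are 95% exact counting intervals, and they describe these 2 libraries only.

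Progress through mitosis is driven by the kinase CDK1 bound to A- and B-type cyclins, whose genes are transcribed mainly in late S phase and G2. Aurora and Polo kinases then build the spindle, the spindle checkpoint holds back anaphase until every kinetochore is attached, and the anaphase-promoting complex ends mitosis by destroying cyclins and securin. Many genes of this programme are controlled through CCAAT boxes bound by NF-Y and through the cell cycle genes homology region (CHR) bound by the MuvB complex, with B-MYB or FOXM1 when the genes are active. The series asks what loss of CYP4F11, a fatty acid hydroxylase, does to growth and movement of lung cancer cells.

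CYP4F11 had 972 counts in the siCYP4F11 library and 3180 counts in the siControl library. Total counts were 13002179 in the siCYP4F11 library and 16207785 in the siControl library, and 13942 genes with a mean of at least 1 CPM (counts relative to library size, scaled by TMM) were called measured. The keratin genes KRT8, KRT18 and KRT19 were abundant, at 436 to 1427 CPM in the siCYP4F11 library and 462 to 1746 CPM in the siControl library, while the epithelial markers EPCAM and CDH1 had 8 and 0 counts in the siCYP4F11 library and 6 and 1 in the siControl library. Of 4 leukocyte markers, PTPRC and CD3E had 0 counts in both libraries, CD68 had 0 in siCYP4F11 and 1 in siControl, and CD14 had 33 in siCYP4F11 and 20 in siControl. The endothelial markers PECAM1, VWF and CDH5 had 0 counts in both. The fibroblast markers COL1A1, COL1A2, DCN and PDGFRB had 0 to 65 counts in siCYP4F11 and 4 to 72 in siControl. CD14 and DCN (36 counts in siCYP4F11, 26 in siControl) pass the rule used below for calls, at these low counts. The neuroendocrine marker CHGA was at 81.7 CPM in siCYP4F11 and 82.3 CPM in siControl. The part of these markers in the results was not tested. Both libraries thus held abundant keratin transcripts and almost none of these epithelial surface markers.

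As a group the mitosis and spindle genes differed little between the libraries. In RNA from whole cultures, a different share of cells in mitosis and a different amount of these transcripts per cell cannot be told apart. All 45 were measured, and they took 83079 counts (0.639% of the library) in siCYP4F11 and 99130 counts (0.612%) in siControl. The log2 ratio of siCYP4F11 over siControl for the summed counts was 0.05 (0.04 to 0.07). The median over members was 0.06, with 25th and 75th percentiles of -0.03 and 0.15, against a median of -0.01 over all measured genes. The ratio was above 0 for 29 members and below 0 for 16, and 24 of the 45 intervals included 0. Genes were called at a log2 ratio of 0.3 or more in either direction, which is 1.23-fold, if the interval also excluded 0. By this rule 3 members were higher in siCYP4F11, CDK1, CCNA2 and SPC25, and 2 were lower, INCENP and AURKA. These are 6.67% and 4.44% of the members, and over all measured genes 7.8% were called higher and 9.51% lower. The called share varied with level, and 42 of the 45 members had a mean of at least 30 CPM. Among measured genes at 30 to 100 CPM, 7.33% were higher and 7.35% lower, with 2 and 1 of 21 members. At 100 CPM or more, 3.59% were higher and 5.53% lower, with 1 and 1 of 21 members. The members' shares were thus near those of genes at similar levels. At a log2 ratio of 1, a 2-fold difference, 0 of 45 members were called in either direction, where 0.703% of measured genes were higher and 1.26% lower.

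**Figure D1:**
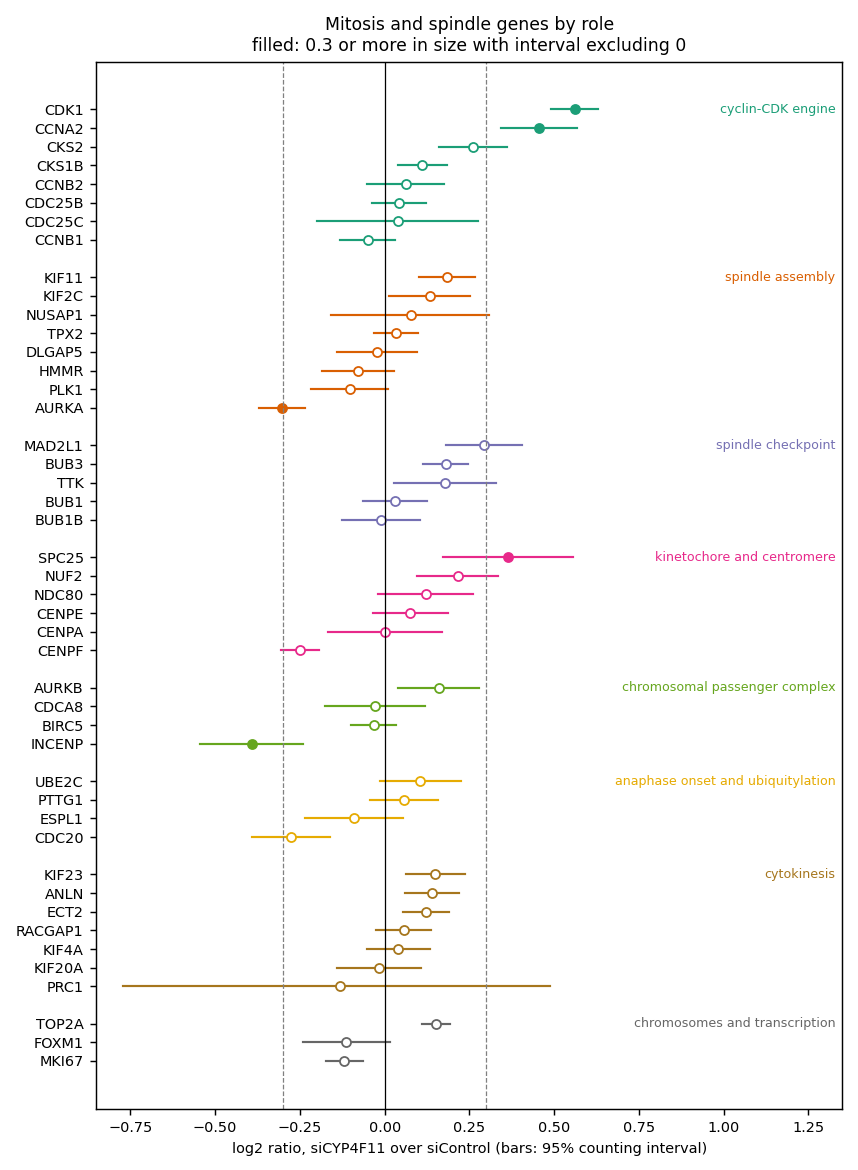
Log2 ratios of siCYP4F11 over siControl (x axis) for the 45 genes in 8 role groups (y axis), with bars for the 95% counting interval and dashed lines at 0.3 in either direction. The 5 filled points are the called genes, and 24 intervals include 0.

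The promoters of 4 of the 5 called genes are shown to let their cell cycle elements be set beside the ratios. They are RefSeq windows on GRCh38.p14, 250 bases before to 50 bases after the start, 5′ to 3′ on the gene's strand. Capitals mark CCAAT and 2 forms of the CHR core, TTTGAA and TTTAAA, each searched on both strands. Other forms of the CHR core were not searched. The first 3 lines are the genes called higher, then INCENP, which was called lower, and CCNB2, whose ratio was close to 0. The promoter of AURKA is not shown here. The windows are chr10:60778228-60778527 on the plus strand for CDK1, chr4:121823834-121824133 on the minus strand for CCNA2, chr2:168890381-168890680 on the minus strand for SPC25, chr11:62123761-62124060 on the plus strand for INCENP and chr15:59104896-59105195 on the plus strand for CCNB2.
CDK1: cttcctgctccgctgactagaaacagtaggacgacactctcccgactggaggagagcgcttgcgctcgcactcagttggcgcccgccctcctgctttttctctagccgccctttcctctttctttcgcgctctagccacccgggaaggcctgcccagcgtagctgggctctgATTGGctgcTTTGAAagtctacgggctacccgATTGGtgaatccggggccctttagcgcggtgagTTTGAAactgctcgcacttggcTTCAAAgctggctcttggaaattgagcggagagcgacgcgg
CCNA2: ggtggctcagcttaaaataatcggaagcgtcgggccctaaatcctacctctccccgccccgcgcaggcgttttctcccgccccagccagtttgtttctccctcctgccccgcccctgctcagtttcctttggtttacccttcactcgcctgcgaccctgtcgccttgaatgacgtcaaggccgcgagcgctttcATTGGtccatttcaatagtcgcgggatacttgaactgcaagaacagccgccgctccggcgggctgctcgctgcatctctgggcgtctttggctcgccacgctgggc
SPC25: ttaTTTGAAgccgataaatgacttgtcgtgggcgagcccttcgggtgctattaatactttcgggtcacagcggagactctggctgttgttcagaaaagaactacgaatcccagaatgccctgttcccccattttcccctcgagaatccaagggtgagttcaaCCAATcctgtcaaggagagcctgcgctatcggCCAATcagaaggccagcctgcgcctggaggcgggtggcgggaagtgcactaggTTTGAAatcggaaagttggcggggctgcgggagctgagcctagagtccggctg
INCENP: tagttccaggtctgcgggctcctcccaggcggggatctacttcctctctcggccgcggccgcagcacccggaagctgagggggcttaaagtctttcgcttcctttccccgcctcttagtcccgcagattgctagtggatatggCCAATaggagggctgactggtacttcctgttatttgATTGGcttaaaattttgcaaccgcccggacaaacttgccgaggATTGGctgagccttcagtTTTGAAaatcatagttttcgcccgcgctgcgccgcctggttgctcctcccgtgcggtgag
CCNB2: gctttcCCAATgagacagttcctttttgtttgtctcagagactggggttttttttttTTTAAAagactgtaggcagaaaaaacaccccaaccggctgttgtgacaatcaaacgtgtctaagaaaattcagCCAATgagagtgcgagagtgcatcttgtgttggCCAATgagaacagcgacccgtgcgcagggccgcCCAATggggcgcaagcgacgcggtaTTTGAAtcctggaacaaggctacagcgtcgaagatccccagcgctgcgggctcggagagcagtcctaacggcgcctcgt
The CDK1 window holds TTTGAA from position -13 to -8, counted from the start at 1, and reverse CCAAT from -78 to -74 and from -46 to -42. CCNB2 holds TTTGAA from -29 to -24 and CCAAT at -120, -87 and -54. INCENP, on the lower side, holds TTTGAA from -10 to -5 and 3 CCAAT elements, so members with both elements stood on both sides of 0. CCNA2 holds 1 reverse CCAAT from -56 to -52 and neither of the 2 CHR forms searched. Its window also holds cttgaa, which was not among the searched letters. CDK1 has 2 windows in the table, of which the one where most annotated transcripts start is shown. Annotated transcripts starting within 25 bases of the window's start were 5 for CDK1, 0 for CCNA2, 1 for SPC25, 3 for INCENP and 2 for CCNB2. The positions given for CCNA2 thus rest on a start that no annotated transcript shares.

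The table of promoters held 47 windows for 37 of the 45 genes. Either CHR form was present in 38 of the 47 windows (80.9%), against 24.0% of all 35116 promoters of the same length. CCAAT was present in 36 (76.6%), against 34.6% of all promoters, and both elements in 30 (63.8%), against 9.27%. Among the 37 genes, the 28 with both elements over all their windows combined had a median log2 ratio of 0.04 and ranged from -0.39 to 0.56. The 6 genes with a searched CHR form alone had a median of 0.13, ranging from -0.01 to 0.22. The 3 with CCAAT and neither searched form, CCNA2, BUB1 and AURKB, had one of 0.16. These 3 are not shown to lack a CHR, since other forms were not searched. The first of these classes spanned the range of the other two.

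CDK1 and CCNA2 had the highest log2 ratios of the 45. CDK1, the kinase that triggers mitosis, had 3714 counts in siCYP4F11 (284 CPM) and 3115 in siControl (193 CPM). This log2 ratio of 0.56 (0.49 to 0.63) lay at percentile 99.4 among the 9591 genes with a mean of at least 10 CPM. After the GC correction described below it was 0.37, outside its counting interval. CCNA2, which encodes cyclin A2, a CDK partner in S phase and G2, had 1371 counts (105 CPM) in siCYP4F11 and 1237 (76.6 CPM) in siControl, a log2 ratio of 0.45 (0.34 to 0.57) at percentile 98.1. Of the exonic bases of CCNA2, 9.08% overlap EXOSC9 on the opposite strand. The B-type cyclins did not share this difference. CCNB1, the main mitotic cyclin, had 2235 counts (171 CPM) in siCYP4F11 and 2862 (177 CPM) in siControl, at -0.05 (-0.13 to 0.03). CCNB2 had 1162 counts (89.0 CPM) in siCYP4F11 and 1376 (85.2 CPM) in siControl, at 0.06 (-0.05 to 0.18). As measured, the CDC25 phosphatases, which activate CDK1, were as close. CDC25B was at 0.04 (-0.04 to 0.12) and CDC25C at 0.04 (-0.20 to 0.28). After the GC correction CDC25B was at 0.15, outside its counting interval, and CDC25C at 0.03. Before the correction the small CDK-binding subunits CKS2 and CKS1B were at 0.26 (0.16 to 0.36) and 0.11 (0.04 to 0.18). Both of these intervals were above 0 and both ratios under the threshold. The 8 genes of this group summed to 15716 counts in siCYP4F11 and 16839 in siControl, a log2 ratio of 0.21 (0.18 to 0.24). CDK1 (ENSG00000170312) lies on chromosome 10 from 60778331 to 60794852 and CCNA2 (ENSG00000145386) on chromosome 4 from 121816444 to 121823933, on GRCh38.

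Spindle assembly genes had 1 call, for the kinase AURKA. AURKA, which matures centrosomes and is activated by TPX2, had 2991 counts (229 CPM) in siCYP4F11 and 4562 (283 CPM) in siControl. The log2 ratio was -0.30 (-0.37 to -0.24), just past the threshold, and it fell short of it under each of the 3 other library scalings. The other 7 genes of the group were not called. TPX2 itself was at 0.03 (-0.03 to 0.10), the kinase PLK1 at -0.10 (-0.22 to 0.01), and the microtubule regulators HMMR and DLGAP5 at -0.08 (-0.18 to 0.03) and -0.02 (-0.14 to 0.09). The motor KIF11, which pushes spindle poles apart, was at 0.18 (0.10 to 0.27). The depolymerising kinesin KIF2C was at 0.13 (0.01 to 0.25), and both intervals lay above 0. After the GC correction described below KIF11 was at 0.04, HMMR at -0.23 and DLGAP5 at -0.16, each outside its counting interval. KIF2C was then at 0.15, inside its interval. As measured, NUSAP1, a microtubule bundler, was at 0.08 (-0.16 to 0.31). Its 283 counts in siCYP4F11 and 332 in siControl are uncertain, since 62.2% of its exonic bases overlap a same-strand gene model, AC087721.2, which had 0 counts. AURKA (ENSG00000087586) is found at 56369389 to 56392337 of chromosome 20, minus strand.

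Of the 5 spindle checkpoint genes, 4 were above 0 and none was called. MAD2L1, which inhibits the anaphase-promoting complex, had 1283 counts (98.3 CPM) in siCYP4F11 and 1295 (80.2 CPM) in siControl, a log2 ratio of 0.29 (0.18 to 0.41). It lay just under the threshold and passed it when total counts were used for scaling. After the GC correction described below MAD2L1 was at 0.17, outside its counting interval. BUB3, a checkpoint scaffold, was at 0.18 (0.11 to 0.25) and the kinase TTK at 0.18 (0.03 to 0.33). After the correction BUB3 was at 0.11 and TTK at 0.04. The kinases BUB1 and BUB1B were at 0.03 (-0.06 to 0.12) and -0.01 (-0.13 to 0.11), and both of these intervals included 0.

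Kinetochore genes spread to both sides. SPC25, a subunit of the NDC80 complex that grips microtubules, had 459 counts (35.2 CPM) in siCYP4F11 and 441 (27.3 CPM) in siControl, a log2 ratio of 0.36 (0.17 to 0.56). After the GC correction described below SPC25 was at 0.25 and no longer called, with NUF2 at 0.09 and NDC80 at 0.02. As measured, its partners NUF2 and NDC80 were at 0.22 (0.10 to 0.33) and 0.12 (-0.02 to 0.26), and the remaining subunit, SPC24, which is outside the 45 and was chosen after its value was seen, at -0.12 (-0.30 to 0.06). The complex held 3 subunits above 0 and 1 below, as measured. CENPF, a large kinetochore and nuclear matrix protein, had 4308 counts (330 CPM) in siCYP4F11 and 6338 (393 CPM) in siControl, at -0.25 (-0.31 to -0.19). Its interval lay wholly below 0, although it was under the threshold. The motor CENPE was at 0.08 (-0.03 to 0.19) and the centromeric histone CENPA at 0.00 (-0.17 to 0.17). SPC25 (ENSG00000152253) is found at 168834132 to 168913371 of chromosome 2, minus strand.

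Of the chromosomal passenger complex, which corrects faulty attachments and then moves to the midzone, the scaffold INCENP stood apart from the other subunits as measured. INCENP had 577 counts (44.2 CPM) in siCYP4F11 and 936 (58.0 CPM) in siControl, a log2 ratio of -0.39 (-0.54 to -0.24), the lowest of the 45 as measured. After the GC correction described below it was at -0.28 and no longer called, and CENPF and AURKA were lower. The kinase AURKB was at 0.16 (0.04 to 0.28), and the localising subunits BIRC5 and CDCA8 were at -0.03 (-0.10 to 0.03) and -0.03 (-0.18 to 0.12). As measured, the interval of INCENP did not overlap those of the other 3. After the correction AURKB was at 0.24, and BIRC5 and CDCA8 were each at 0.01. INCENP (ENSG00000149503) is found at 62123973 to 62153163 of chromosome 11, plus strand.

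Genes of anaphase onset had no call. CDC20, the activator of the anaphase-promoting complex, had 1016 counts (77.8 CPM) in siCYP4F11 and 1522 (94.3 CPM) in siControl, a log2 ratio of -0.28 (-0.39 to -0.16). The interval was below 0 and the size under the threshold. The conjugating enzyme UBE2C was at 0.11 (-0.01 to 0.22), securin (PTTG1) at 0.06 (-0.04 to 0.16) and separase (ESPL1) at -0.09 (-0.24 to 0.05), all with intervals that included 0.

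Cytokinesis genes varied least of the 8 groups, with an SD of log2 ratios of 0.10 over 7 genes, and none was called. KIF23 and RACGAP1, the partners in centralspindlin, were at 0.15 (0.06 to 0.24) and 0.06 (-0.03 to 0.14). ECT2, an exchange factor needed for furrow ingression, and the scaffold ANLN were at 0.12 (0.05 to 0.19) and 0.14 (0.06 to 0.22). After the GC correction described below KIF23 was at 0.06, ECT2 at -0.02 and ANLN at 0.03. As measured, the midzone kinesins KIF4A and KIF20A were at 0.04 (-0.05 to 0.13) and -0.02 (-0.14 to 0.11). Of all 50-base stretches of KIF4A, 13.7% also occur elsewhere, mostly in KIF4B, so its count is less certain. PRC1, the midzone crosslinker, had 39 counts in siCYP4F11 and 53 in siControl, at -0.13 (-0.77 to 0.49). Its level is not known from these counts, since 57.6% of its exonic bases overlap a same-strand gene model, AC068831.7, which had 136 counts in siCYP4F11 and 172 in siControl.

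The last group holds genes of chromosomes and transcription. TOP2A, which untangles sister chromatids, was the most counted member, with 8675 counts (665 CPM) in siCYP4F11 and 9664 (599 CPM) in siControl, at 0.15 (0.11 to 0.19). The proliferation antigen gene MKI67 was at -0.12 (-0.17 to -0.07). FOXM1, a transcription factor for G2 genes, was at -0.11 (-0.24 to 0.01), and 15.9% of its exonic bases overlap ITFG2 on the opposite strand. TOP2A and MKI67, both widely used as proliferation markers, stood on opposite sides of 0, each by less than the threshold. After the GC correction described below TOP2A was at 0.02 and MKI67 at -0.12.

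Levels per gene length kept nearly the same order in both libraries. In RPKM, CPM per kilobase of the gene model in the table, the members ranged from 0.541 to 203 with a median of 28.2 in siCYP4F11, and from 0.594 to 169 with a median of 27.4 in siControl. CKS2 was the highest in both and PRC1 the lowest. AURKA ranked 4 among the 45 in siCYP4F11 and 2 in siControl, at 78.3 RPKM and 96.5 RPKM. CDK1 ranked 6 in siCYP4F11 and 10 in siControl, at 72.4 RPKM and 49.1 RPKM.

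**Figure D2:**
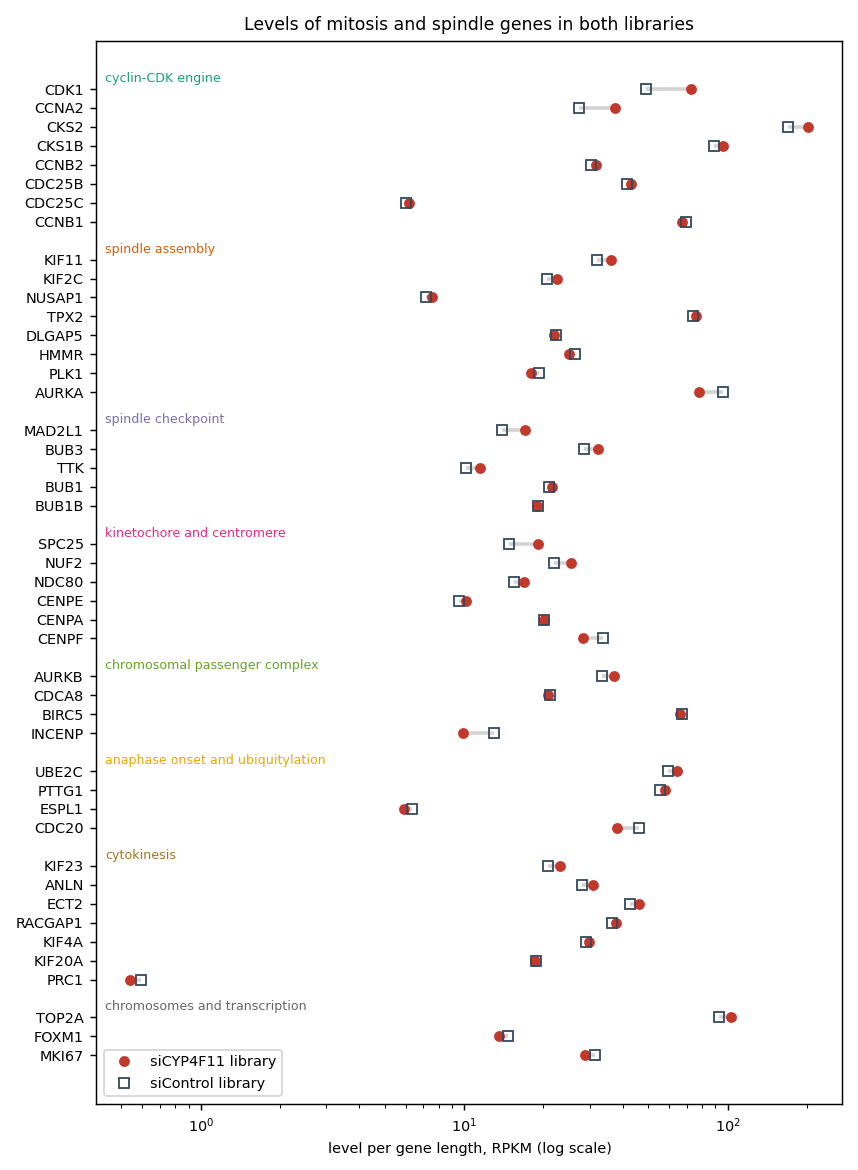
Level of each of the 45 genes in RPKM on a log axis, grouped by role, with filled circles for the siCYP4F11 library and open squares for the siControl library. CDK1 shows the widest gap to the right of its siControl square, and INCENP and AURKA the widest to the left.

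Shares within a pair of genes need no library scaling. Of the reads of both Aurora kinases, AURKA took 73.3% (71.9% to 74.7%) in siCYP4F11 and 79.1% (78.0% to 80.1%) in siControl, and these intervals did not overlap. The intervals of the other 4 pairs of related genes did. CCNB1 took 65.8% (64.2% to 67.4%) of B-type cyclin reads in siCYP4F11 and 67.5% (66.1% to 68.9%) in siControl. CKS1B took 64.3% (62.9% to 65.7%) of its pair with CKS2 in siCYP4F11 and 66.7% (65.3% to 68.0%) in siControl. CDC25B took 89.9% of its pair with CDC25C in both, and BUB1 60.5% and 59.8% of its pair with BUB1B in siCYP4F11 and siControl. A further 4 pairs were chosen after their values were seen. CDK1 took 62.4% (61.2% to 63.7%) of its reads with CCNB1 in siCYP4F11 and 52.1% (50.8% to 53.4%) in siControl, and CCNA2 took 38.02% (36.4% to 39.6%) of its reads with CCNB1 in siCYP4F11 and 30.2% (28.8% to 31.6%) in siControl. INCENP took 34.7% (32.4% to 37.0%) of its reads with AURKB in siCYP4F11 and 43.7% (41.6% to 45.8%) in siControl, and AURKA took 45.6% (44.4% to 46.8%) of its reads with its activator TPX2 in siCYP4F11 and 51.4% (50.3% to 52.4%) in siControl.

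**Figure D3:**
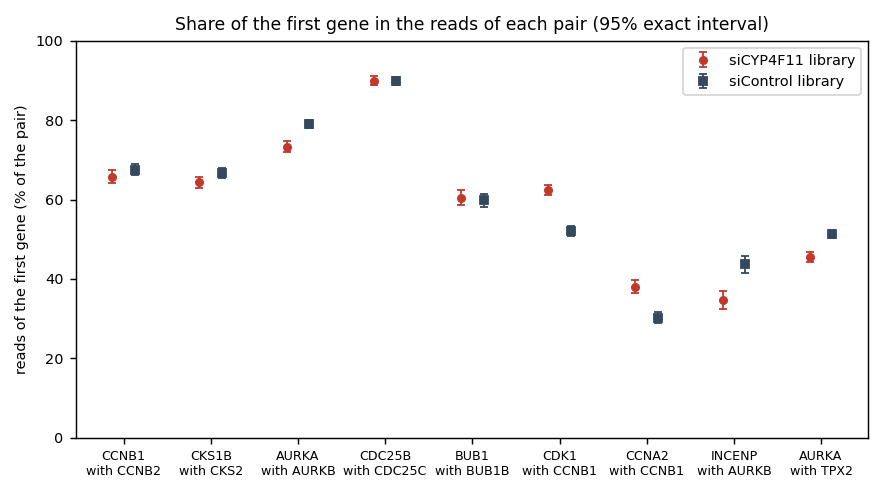
Share of the first-named gene in the reads of each pair (y axis, %), with circles for siCYP4F11, squares for siControl and bars for the 95% exact interval. The first 5 pairs are related genes, of which the Aurora kinases alone have intervals that do not overlap, and the last 4 pairs were chosen after their values were seen.

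The ratios of the members moved with the GC content of their transcripts, as did those of other genes. Across the 45 genes, which share the 2 libraries, Pearson's r between GC content and log2 ratio was -0.54 and Spearman's rank coefficient was -0.54. Over 9590 measured genes with a mean of at least 10 CPM they were -0.40 and -0.42. Members had a median GC content of 45.1%, against 48.7% over all measured genes, and 32 of the 45 lay below that median. CDK1 had 35.8% GC and INCENP 59.3%, near the ends of the members' range of 35.5% to 59.3%. The 959 genes lowest in GC content had a median log2 ratio of 0.15, and the 10 members among them had a median of 0.16. After a lowess correction on GC content the median of the members was 0.02, and the summed counts were at -0.01. CDK1 and CCNA2 were both at 0.37 after it and still called, while SPC25 (0.25) and INCENP (-0.28) were not. CENPF, at -0.36, was then called lower together with AURKA at -0.33. The corrected ratio was above 0 for 29 of the 45. The sign of 6 uncalled members differed after it. CENPE at -0.12, BUB1 at -0.05 and ECT2 at -0.02 were below 0 after the correction and above it before, and BIRC5 and CDCA8 at 0.01 and ESPL1 at 0.00 were above 0 after it and below it before. By role, the corrected medians were 0.11 for the cyclin-CDK group, against 0.09 before, 0.04 for checkpoint genes, against 0.18 before, and 0.02 for kinetochore genes, against 0.10 before.

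**Figure D4:**
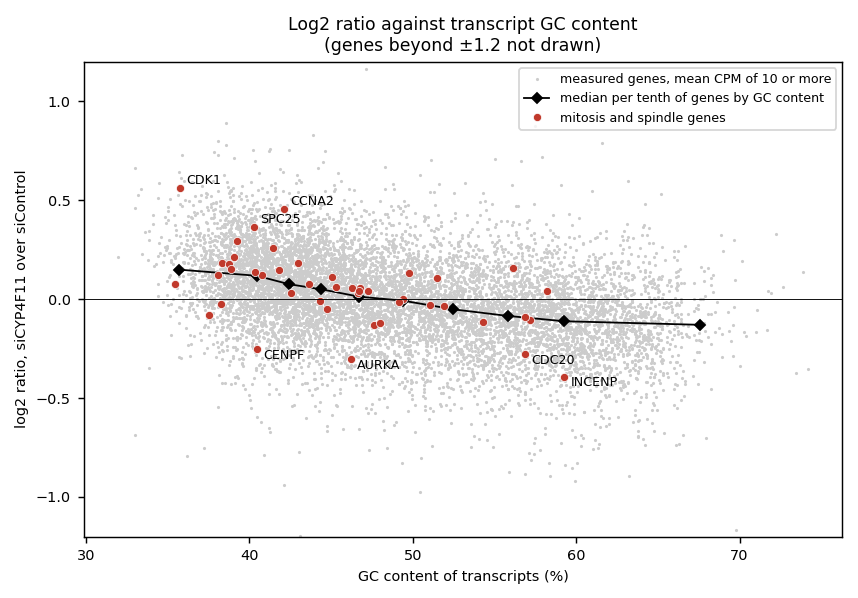
Log2 ratio of siCYP4F11 over siControl (y axis) against transcript GC content in % (x axis) for measured genes with a mean of at least 10 CPM (grey), the 45 mitosis and spindle genes (red), and the medians of 10 bins of near equal size by GC content (black). The medians run from 0.15 at low GC content to -0.13 at high GC content, and AURKA and CENPF lie below the medians of their bins while CDK1 and CCNA2 lie above.

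A further 130 genes of mitosis in 6 lists had ratios much like those of the 45. Their median was 0.05, with 7 called higher (5.38%) and 5 lower (3.85%), against 7.8% and 9.51% of all measured genes. The list of other kinetochore and centromere genes held 5 of the 7, which is 16.7% of its 30 genes. Its median GC content was 42.9%. Among genes of at least 10 CPM with 41.5% to 43.3% GC, 11.7% were called higher. CENPK had 743 counts (56.9 CPM) in siCYP4F11 and 637 (39.5 CPM) in siControl, at 0.53 (0.37 to 0.68), SKA2 was at 0.39 (0.26 to 0.52), and CENPW at 0.39 (0.12 to 0.66). After the GC correction SKA2 was at 0.27 and no longer called. CENPT, which links centromeric chromatin to the NDC80 complex, was lower at -0.44 (-0.61 to -0.27). Of the 30 genes of this list, 25 were above 0 and the median was 0.11, or 0.07 after the GC correction. Genes of the anaphase-promoting complex and its regulators had 2 calls on each side among 17 genes, or 11.8% each. FBXO5, an inhibitor of the complex, and ANAPC11, its catalytic subunit, were higher at 0.36 (0.19 to 0.52) and 0.35 (0.25 to 0.45). After the GC correction FBXO5 was at 0.19 and no longer called, as was UBE2S at -0.21. As measured UBE2S, its chain-elongating enzyme, of whose 50-base stretches 15.9% occur elsewhere, and ANAPC15 were lower at -0.31 (-0.37 to -0.25) and -0.70 (-1.17 to -0.25). ANAPC15 had only 62 counts in siCYP4F11 and 125 in siControl, and 27.1% of its exonic bases overlap LRTOMT on the opposite strand. The checkpoint gene MAD1L1 was also lower, at -0.43 (-0.63 to -0.24). As measured, condensin and cohesin genes had 0 calls among 20, with a median of 0.05, or -0.03 after the GC correction. The regulators of the programme itself had 0 calls among 11 as measured, with a median of 0.04. MYBL2, which encodes B-MYB, chosen after its value was seen, was at 0.04 (-0.05 to 0.12). After the GC correction 7 of the 130 were again called higher and 3 lower, but not all were the same genes. PMF1, CDCA5 and LIN37, chosen after their values were seen, were not called as measured. They were at 0.35, 0.31 and 0.99 after the correction, LIN37 from 27 counts in siCYP4F11 and 18 in siControl.

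**Figure D5:**
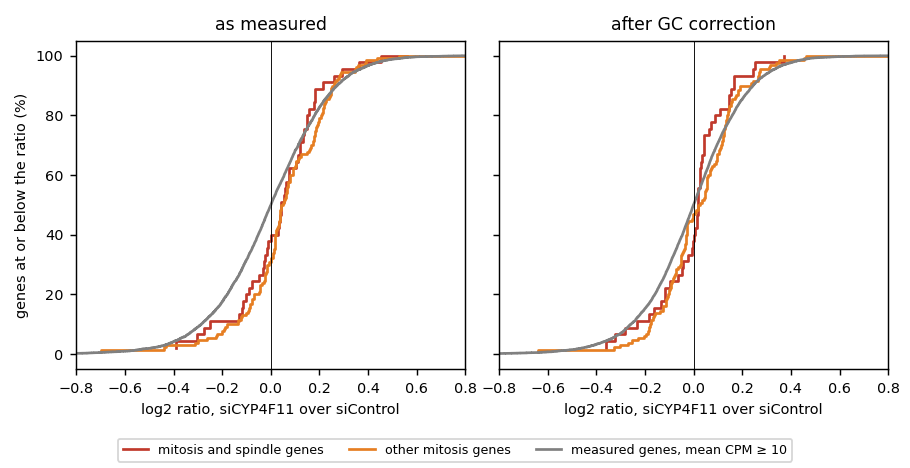
Cumulative share of genes (y axis, %) at or below each log2 ratio of siCYP4F11 over siControl (x axis), as measured on the left and after the GC correction on the right, for the 45 mitosis and spindle genes, the 130 other mitosis genes and all measured genes with a mean of at least 10 CPM. As measured, both mitosis curves cross the middle to the right of 0, at medians of 0.06 and 0.05, and after the correction at 0.02 and 0.03.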

How the data were processed

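Poly-A RNA was made into dUTP strand-specific libraries, per the labels' protocols. The authors deposited 1 table of whole-number read counts per gene, not normalised, with gene model lengths in bases as another column. Tools listed in the submitters' processing notes are featureCounts 2.0.6, HISAT2 2.2.1, edgeR 4.0.16 and fastp, with GRCh38 as the build. The strand setting used in counting is not stated. All 58735 gene entries had the coordinates and symbols of GENCODE release 29, which supplied transcripts, exons and GC content.

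Library sizes were scaled by TMM in edgeR 4.0.16 under R 4.3.3. Log2 ratios had 0.5 added to each count, with Clopper-Pearson intervals at 95%, which cover counting error only. A minimum of 3 counts corresponds to 0.230 CPM in siCYP4F11 and 0.186 CPM in siControl. No quasi-likelihood test could be fitted without replicates. RPKM used the table's gene lengths. The GC correction was a lowess fit with a span of 0.3 over genes with a mean of at least 10 CPM (statsmodels 0.14.6). The ratio, interval and correction were tested on simulated data. Named genes are CYP4F11, all members called, the highest and lowest of each role group, pair genes, the highest and lowest per length, and up to 4 called genes of each other list; further members are given to account for all 45. A gene that this rule names is not reported here. The members, lists and rules were chosen with earlier results of these data known. Alternatives used DESeq2 1.42.0 size factors, total counts, upper quartiles, other filters and thresholds, and protein-coding genes alone.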

Additional observations from a re-analysis of the deposited data

How the results depend on the processing

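No paired analysis was possible because each group has 1 library, and leaving out a replicate was impossible for the same reason. Members called lower were 1 in place of 2 with total counts, with DESeq2 size factors and with upper-quartile scaling, since AURKA fell under the threshold, and total counts added MAD2L1 to the higher side. Other mitosis genes called lower were 3 in place of 5 with total counts and with the GC correction. They were 4 with DESeq2 size factors, upper-quartile scaling, 2 added to each count and a minimum mean of 10 CPM. A threshold of 0.5 left 1 member higher (CDK1) and 0 lower, with 1 and 1 of the other mitosis genes, and a threshold of 1 left 0 in each, which follows from a stricter rule. The GC correction took the log2 ratio of the members' summed counts to -0.0056, and 14 of the 45 members moved beyond their counting interval under it. No called member changed sign under any alternative run, and adding 2 to each count, other filters and protein-coding genes alone changed no member's call. Pair shares do not depend on scaling. Counts were lowest for PRC1, CDC25C and NUSAP1. For PRC1 and NUSAP1, same-strand gene models over 57.6% and 62.2% of their exonic bases also limit the counts.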

Other observations

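Spacing of CCAAT elements was noticed in the printed promoters and then counted, with no test. Of the 22 windows of mitosis and spindle genes with 2 or more CCAAT elements, 6 held a same-strand pair with first bases 31 to 34 apart, and 3 of these 6 (CDK1, SPC25 and CCNB2) are the printed ones that set the spacing. Of the 3776 such windows among all promoters, 344 held it. Windows with 2 or more CCAAT elements were 46.8% of those of mitosis and spindle genes and 10.8% of all promoters.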
